A study of Mus musculus with 6 samples.

Results

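The genes described here are those of the cornified envelope and of late epidermal differentiation. They were chosen by symbol: every gene whose name is *Sprr* or *Lce* followed by a digit, together with *Lor*, *Ivl*, *Flg*, *Flg2*, *Hrnr*, *Rptn*, *Tchh*, *Tchhl1*, *Crnn*, *Tgm1*, *Tgm3*, *Krtdap*, *Sbsn*, *Cdsn*, *Casp14*, *Asprv1*, *Calml3* and *Dmkn*. The rule found 56 of the 56262 genes in the count table, and 47 of them passed the filter on low counts and were among the 22071 genes tested. The set was proposed because its members differed between the genotypes in these same libraries, so the WT and KO values of the members are given as a description, and the calls of the fit across all genes are printed for them but support nothing. RNA-seq was performed on leg muscle of mouse fetuses at embryonic day 18.5 (E18.5), with 3 wild-type (WT) and 3 *SYISL* knockout (KO) libraries, called WT1 to WT3 and KO1 to KO3 after their replicate numbers. *SYISL* is transcribed from within an intron of *Synpo2* as a long noncoding RNA, and the study examined how its loss in mother and fetus bears on muscle fiber formation. Fetuses came from matings within each genotype, so the genotype of the fetus and that of its mother, and the litters, cannot be told apart. The labels do not say whether the libraries of a genotype came from separate fetuses or litters, and if they did not, the errors and p-values below measure technical spread only.

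The libraries held 82054811 to 102233181 counts, with no order between the genotypes. A level is given in CPM, counts of the gene per 1000000 counts of the library with the library size scaled by TMM, and 3 counts in a library correspond to 0.0293 to 0.0366 CPM on the unscaled totals. No symbol of the annotation stood for *SYISL*, and its host gene *Synpo2* was at 131 to 139 CPM in the WT and at 193 to 229 CPM in the KO libraries, so the counts per gene did not check the deletion. Muscle RNA was present in every library. Over both genotypes, *Acta1*, the sarcomeric actin, was at 4280 to 13505 CPM, and *Myh8*, the perinatal myosin heavy chain, at 4166 to 15082 CPM. Both genes were higher in KO. The WT libraries also held much epidermal RNA. Markers of the spinous layer of the epidermis summed to 13617 to 21076 CPM in WT, where 9 skeletal muscle markers summed to 18298 to 20479 CPM. Errors are SD over the 3 libraries of a genotype for levels, and SE of the edgeR fit for log2 fold changes, which are KO over WT throughout.

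The cornified envelope is the insoluble protein shell that replaces the plasma membrane of keratinocytes when they become dead, flattened corneocytes at the skin surface. Involucrin and the plakins envoplakin and periplakin are laid down as a scaffold under the membrane, transglutaminases then cross-link loricrin, small proline-rich proteins and late cornified envelope proteins onto it, and lipids are attached to the outer face. Many of these genes lie side by side in the epidermal differentiation complex, on mouse chromosome 3, together with the S100 fused-type genes such as *Flg*, whose product is cut into filaggrin units that bundle keratin filaments and are later broken down into moisturising amino acids. In the mouse this program is switched on in the last days before birth, when the skin barrier forms, and it belongs to the epidermis, not to skeletal muscle.

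The promoter letters of a few members are shown because the members differed widely in how far apart the genotypes were, and because short motifs were shared within some classes and missing from others. Each line gives the 120 bases before the annotated start, 5′ to 3′ on the strand of the gene, from the RefSeq promoter table of build GRCm38.p6 (mm10). Capitals mark TATAAA, the TATA box, and TGAGTCA or its reverse complement TGACTCA, the AP-1 motif bound by Jun and Fos proteins. *Sprr1a*, *Sprr1b* and *Ivl* were among the members with the widest difference, *Lor* and *Hrnr* had the most reads in WT, *Krtdap* had the highest level per kb, *Lce1m* stands for the late cornified envelope genes, and *Flg* and *Tchh* had the narrowest.
Sprr1a: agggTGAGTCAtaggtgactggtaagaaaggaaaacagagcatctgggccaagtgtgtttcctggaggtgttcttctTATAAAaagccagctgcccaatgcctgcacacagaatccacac
Sprr1b: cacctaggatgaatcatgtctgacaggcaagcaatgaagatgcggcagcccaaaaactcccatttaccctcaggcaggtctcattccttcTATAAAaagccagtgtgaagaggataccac
Ivl: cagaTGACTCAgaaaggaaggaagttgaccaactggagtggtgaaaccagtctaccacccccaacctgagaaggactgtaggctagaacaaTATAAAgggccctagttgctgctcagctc
Lor: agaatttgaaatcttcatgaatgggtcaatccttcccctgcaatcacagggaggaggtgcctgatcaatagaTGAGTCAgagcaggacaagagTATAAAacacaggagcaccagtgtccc
Hrnr: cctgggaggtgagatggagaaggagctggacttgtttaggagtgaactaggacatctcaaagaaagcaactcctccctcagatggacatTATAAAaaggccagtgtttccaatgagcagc
Lce1m: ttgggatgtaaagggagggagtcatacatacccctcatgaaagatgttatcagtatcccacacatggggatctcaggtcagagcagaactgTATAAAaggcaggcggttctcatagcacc
Krtdap: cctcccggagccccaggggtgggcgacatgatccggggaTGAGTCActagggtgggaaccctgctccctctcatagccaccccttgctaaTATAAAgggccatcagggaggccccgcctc
Flg: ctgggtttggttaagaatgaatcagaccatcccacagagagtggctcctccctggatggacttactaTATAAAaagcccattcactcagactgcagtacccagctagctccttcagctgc
Tchh: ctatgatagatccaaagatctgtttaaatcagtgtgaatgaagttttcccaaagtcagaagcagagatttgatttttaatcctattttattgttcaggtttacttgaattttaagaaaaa

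The stretches are those of *Sprr1a* (chr3:92485882-92486001, minus strand), *Sprr1b* (chr3:92438780-92438899, minus), *Ivl* (chr3:92573736-92573855, minus), *Lor* (chr3:92083143-92083262, minus), *Hrnr* (chr3:93319629-93319748, plus), *Lce1m* (chr3:93019062-93019181, minus), *Krtdap* (chr7:30787785-30787904, plus), *Flg* (chr3:93273426-93273545, plus) and *Tchh* (chr3:93442210-93442329, plus). In the *Lor* stretch the AP-1 letters began 48 bases before the start and the TATA box 27. In *Ivl* they began 116 and 29 bases before it, and in *Krtdap* 81 and 30. *Sprr1a* also carried both, with the AP-1 letters at 116 and the TATA box at 43 bases. All distances are from the RefSeq starts. The GENCODE starts of *Sprr1a* (chr3:92485895), *Sprr1b* (chr3:92438789), *Krtdap* (chr7:30787896) and *Flg* (chr3:93273523) lie inside the printed stretches. The TATA boxes of these genes are therefore closer to the GENCODE starts than to the RefSeq starts. *Sprr1b*, *Hrnr*, *Lce1m* and *Flg* held a TATA box but no AP-1 letters in these bases, and *Tchh* held neither.

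Counts of the 56 genes together made up 0.976%, 1.36% and 1.04% of all counts in WT1, WT2 and WT3, and 0.0914%, 0.105% and 0.102% in KO1, KO2 and KO3. They summed to 11000 ± 2185 CPM in WT libraries and to 1018 ± 93.0 CPM in KO libraries, which is 10.8-fold lower, and the lowest WT library, at 9465 CPM, was far above the highest KO library, at 1086 CPM. All 47 tested members were called lower in KO, at an adjusted p under 0.05 with a fold change over 1.5 in edgeR, where 8.39% of all genes tested were called lower. No member was called higher, by edgeR, by DESeq2 or at an unadjusted p under 0.05, where 8.31% of all genes tested were called higher by edgeR. In all 47 every KO value lay under every WT value, which held for 28.5% of all genes tested, and 41 of the 47 were called and over 4-fold lower, against 3.16% of all genes. Because the set was proposed from this contrast, nothing is read from these counts. The median log2 fold change of the tested members was -3.02, with all genes tested at -0.0041. A member could pass the low-count filter through its WT libraries alone, so these figures do not speak for the 9 untested members.

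These are bulk libraries, in which fewer epidermal cells and less of these RNAs per cell cannot be told apart. Markers of the epidermal layers moved with the members: the summed level of 11 spinous keratinocyte markers was 13617 to 21076 CPM in WT, against 239 to 391 CPM in KO. Of these, *Krt2*, named after its values were seen, was at 0 in all 3 KO libraries. The summed level of 9 basal keratinocyte markers was 1822 to 2130 CPM in WT, against 523 to 606 CPM in KO. Keratins of the inner root sheath of the hair follicle went the other way, with a summed level of 0.448 to 0.578 CPM in WT, against 6.03 to 8.42 CPM in KO. All 5 tested were higher in KO, but most of them passed the low-count filter through KO alone. *Krt72*, which was not tested, was lower in KO on few counts. The summed level of 9 skeletal muscle markers was also higher in KO, from 18298 to 20479 CPM in WT up to 38732 to 46725 CPM in KO. The amount of skin in each leg sample was not recorded in the labels, and its part in the values below was not tested.

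**Figure D1:**
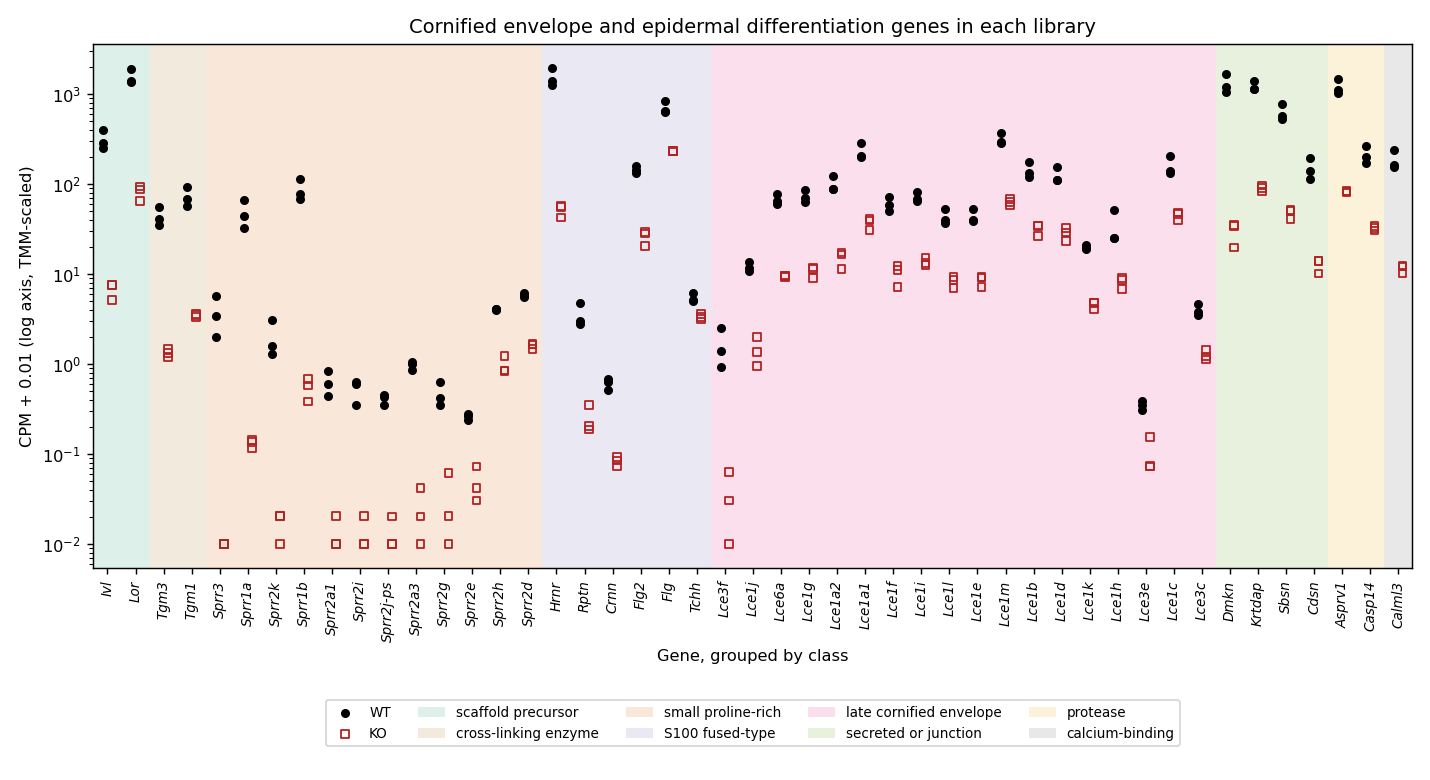
Level of each of the 47 tested members in each library, as CPM plus 0.01 on a log axis, with WT as filled circles and KO as open squares; genes are grouped by class (background colour) and ordered by fold change within it. Every KO square lies below every WT circle of the same gene, the gap is narrowest for *Tchh*, and squares at 0.01 are libraries with 0 counts.

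Loricrin, a glycine-rich protein that makes up most of the mass of the mature envelope, was the member with the most reads over the WT libraries. *Lor* (chr3:92080271-92083142) was at 1371, 1929.7 and 1416 CPM in WT1, WT2 and WT3 and at 64.7, 94.0 and 87.3 CPM in KO1, KO2 and KO3. The highest KO library was still over 10-fold below the lowest WT library, and the log2 fold change was -4.26 (SE 0.18). Involucrin is the glutamine-rich substrate laid down before loricrin. *Ivl* (chr3:92570902-92573735) was at 253, 395 and 286 CPM in the WT and 5.20, 7.61 and 7.58 CPM in the KO libraries, with the groups far apart. Its log2 fold change of -5.52 (SE 0.21) was further from 0 than that of *Lor*, and the count of *Ivl* per count of *Lor* within a library was 0.197 ± 0.0109 in WT and 0.0826 ± 0.0036 in KO.

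The transglutaminases join glutamine and lysine side chains of these precursors. *Tgm1*, the membrane-anchored enzyme whose loss in people causes a form of ichthyosis, was at 57.1, 93.8 and 68.9 CPM in WT1 to WT3 and 3.51, 3.59 and 3.33 CPM in KO1 to KO3. *Tgm3*, the cytosolic enzyme of the upper epidermis and hair follicle, was at 35.3, 55.3 and 41.0 CPM in WT and at 1.17, 1.31 and 1.46 CPM in KO. In both genes the KO libraries lay close together and well under the WT libraries, and the log2 fold changes were -4.40 (SE 0.18) for *Tgm1* and -5.06 (SE 0.18) for *Tgm3*.

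The small proline-rich proteins are cross-bridges between the larger precursors, and some of them are also induced by stress and in the periderm and in mucosal epithelia. The class held 17 genes in a stretch of 285 kb, 12 of them tested. Of these, 8 had at most 11 counts over the KO libraries together and passed the filter through WT alone, and the 4 with at least 10 counts in every library ranged in log2 fold change from -8.59 for *Sprr1a* to -1.86 for *Sprr2d*. The median over the 12, at -6.57, therefore leans on genes with few counts in KO, and the class is not ranked against the others. *Sprr1b* was at 67.8, 113 and 78.6 CPM in the 3 WT libraries and at 0.373, 0.567 and 0.678 CPM in the 3 KO libraries. *Sprr1a* was at 32.4, 66.3 and 44.5 CPM in WT and at 0.107, 0.126 and 0.134 CPM in KO. WT2 was the highest library for both, all KO libraries were under 1 CPM, and the levels were 159-fold lower for *Sprr1b* (log2 fold change -7.32, SE 0.26) and 386-fold lower for *Sprr1a* (-8.59, SE 0.37). *Sprr3*, a gene of esophagus and other mucosal linings, had 188, 476 and 357 counts in WT1, WT2 and WT3 and none in any KO library. With 3 counts per library as the floor, *Sprr3* was at least 118-fold lower in KO.

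Among the *Sprr2* genes, which are near copies of each other, the difference was uneven. *Sprr2d* was at 6.11, 5.71 and 5.60 CPM in WT and at 1.47, 1.65 and 1.68 CPM in KO, and *Sprr2h* at 4.08, 4.01 and 4.10 CPM in WT and at 0.832, 0.839 and 1.21 CPM in KO. Per kb of exon these were the *Sprr2* genes with the highest levels in both genotypes and the smallest differences, at log2 fold changes of -1.86 (SE 0.087) and -2.08 (SE 0.14), and their WT libraries were nearly equal, without the high value in WT2. *Sprr2k* had 543 counts over the WT libraries and 2 over the KO libraries, a ratio of 275 with a 95% counting interval of 75.7 to 2275. The genes *Sprr2a1*, *Sprr2i* and *Sprr2j-ps*, named after their values were seen, had 172, 146 and 113 counts in WT and 1 count each in KO, with ratios of 174 (interval 30.8 to 6916), 148 (26.1 to 5877) and 114 (20.1 to 4557). The intervals are exact and cover counting error only. How reads were shared among near-identical *Sprr2* copies is not given in the sources used here, and the annotated spans of *Sprr2a1* and *Sprr2a2* overlap, so the split between single *Sprr2* genes is uncertain.

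The S100 fused-type genes encode long repeat proteins that begin with a calcium-binding S100 domain. Hornerin had the most reads of the class in WT: *Hrnr* (chr3:93319749-93333570) was at 1276, 1966 and 1405 CPM in the WT libraries and 42.5, 57.4 and 56.2 CPM in the KO libraries, with a log2 fold change of -4.90 (SE 0.19). Filaggrin, whose loss-of-function variants are the best known genetic factor in ichthyosis vulgaris and atopic dermatitis, stood apart from it. *Flg* (chr3:93273523-93293686) was at 633, 841 and 656 CPM in WT1 to WT3 and at 230.4, 234 and 236 CPM in KO1 to KO3, with KO libraries that were nearly equal, and the log2 fold change was -1.60 (SE 0.10). *Flg* and *Hrnr* are neighbours in the complex, yet the count of *Flg* per count of *Hrnr* was 0.464 ± 0.0340 in WT and 4.57 ± 0.745 in KO.

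*Flg2*, a filaggrin relative, was at 134, 161 and 144 CPM in WT and at 20.5, 28.4 and 29.3 CPM in KO (log2 fold change -2.49, SE 0.12). Repetin, another envelope substrate, was low: *Rptn* was at 2.79, 4.78 and 2.97 CPM in WT and at 0.341, 0.178 and 0.195 CPM in KO (-3.87, SE 0.29). Cornulin was lower again, with *Crnn* at 0.676, 0.629 and 0.512 CPM in WT and at 0.0747, 0.0630 and 0.0822 CPM in KO (-3.02, SE 0.24). In these genes the groups did not overlap either. Trichohyalin differs from the rest in being mainly a protein of the inner root sheath and medulla of the hair follicle. *Tchh* was at 5.07, 6.23 and 5.12 CPM in WT and at 3.60, 3.34 and 3.16 CPM in KO, and its log2 fold change of -0.70 (SE 0.10) was the smallest of the tested members. *Tchhl1*, the trichohyalin-like gene beside *Tchh*, had at most 6 counts in any library and was not tested.

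The late cornified envelope genes encode small proteins that are cross-linked late, on the inner face of the envelope. The class held 21 genes within 399 kb. All 14 *Lce1* genes were tested and lay in a narrow band of log2 fold changes, from -3.08 to -1.82, with a median of -2.38, and *Lce6a*, at the *Ivl* end of the block and named after its values were seen, was at -2.84 (SE 0.09). *Lce1m* was the one with the most reads, at 289, 368 and 293 CPM in WT and at 58.6, 68.2 and 63.8 CPM in KO. *Lce1a1* was at 207, 289.9 and 199 CPM in WT and at 31.1, 41.3 and 39.5 CPM in KO. For both the lowest WT library was over 4-fold above the highest KO library, with log2 fold changes of -2.32 (SE 0.10) and -2.64 (SE 0.15). *Lce1c* was at 139, 204 and 135 CPM in WT and at 39.9, 48.5 and 46.7 CPM in KO, with a log2 fold change of -1.82 (SE 0.15). The values were -2.16 (SE 0.14) for *Lce1b*, -2.15 (SE 0.15) for *Lce1d* and -2.73 (SE 0.17) for *Lce1a2*. KO1 was the lowest KO library in all 14 *Lce1* genes. The *Lce1* genes are close relatives, so reads may have been shared unevenly among them.

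Of the 6 *Lce3* genes, which in human skin are known for being induced by injury and in psoriasis, 3 were tested. *Lce3c* was at 3.81, 4.60 and 3.53 CPM in WT and at 1.43, 1.11 and 1.20 CPM in KO (log2 fold change -1.67, SE 0.13). *Lce3f*, which like *Lce3e* is named after its values were seen, lay outside the band of the class, with 88, 205 and 146 counts in WT and 5, 0 and 2 counts in KO. *Lce3e* was near the filter, with a log2 fold change of -1.88 (SE 0.32), and *Lce3a*, *Lce3b* and *Lce3d* had at most 9 counts in any library.

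A further group encodes proteins that are secreted or sit in cell junctions of the upper epidermis. *Krtdap*, a small secreted protein of differentiating keratinocytes, was at 1148, 1404 and 1137 CPM in WT and at 83.0, 96.6 and 90.6 CPM in KO. Per kb of exon it had the highest level of all members in both genotypes, at 1811 CPM per kb in WT and 133 in KO, ahead of *Lor* at 884 in WT and of *Lce1m* at 67.0 in KO. *Dmkn*, its neighbour on chromosome 7, was at 1068, 1669 and 1215 CPM in WT and at 19.8, 35.3 and 34.4 CPM in KO. *Sbsn*, the other gene of that cluster, was at 529, 778 and 572 CPM in WT and at 41.2, 50.6 and 51.5 CPM in KO. The groups were far apart in all of them, but unequally: the log2 fold change was -3.77 (SE 0.10) for *Krtdap*, -3.71 (SE 0.15) for *Sbsn* and -5.47 (SE 0.26) for *Dmkn*. Corneodesmosin holds corneocytes together until they are shed, and *Cdsn* was at 115, 194 and 142 CPM in WT and at 10.2, 14.01 and 14.1 CPM in KO (-3.56, SE 0.20).

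Both proteases of the set act on filaggrin. *Asprv1*, the aspartic protease that cuts the filaggrin precursor, was at 1020.5, 1467 and 1109 CPM in WT and at 84.6, 83.2 and 81.1 CPM in KO (log2 fold change -3.85, SE 0.13). *Casp14*, a caspase of the cornified layer that takes part in breaking filaggrin down, was at 173, 263 and 199 CPM in WT and at 30.5, 32.8 and 34.1 CPM in KO (-2.70, SE 0.14). Neither gene overlapped between the genotypes, and the KO libraries were nearly equal in both. *Calml3*, a calmodulin-like calcium sensor of epithelia, was at 156, 239 and 163 CPM in WT and at 10.3, 12.2 and 12.4 CPM in KO (-4.00, SE 0.17).

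**Figure D2:**
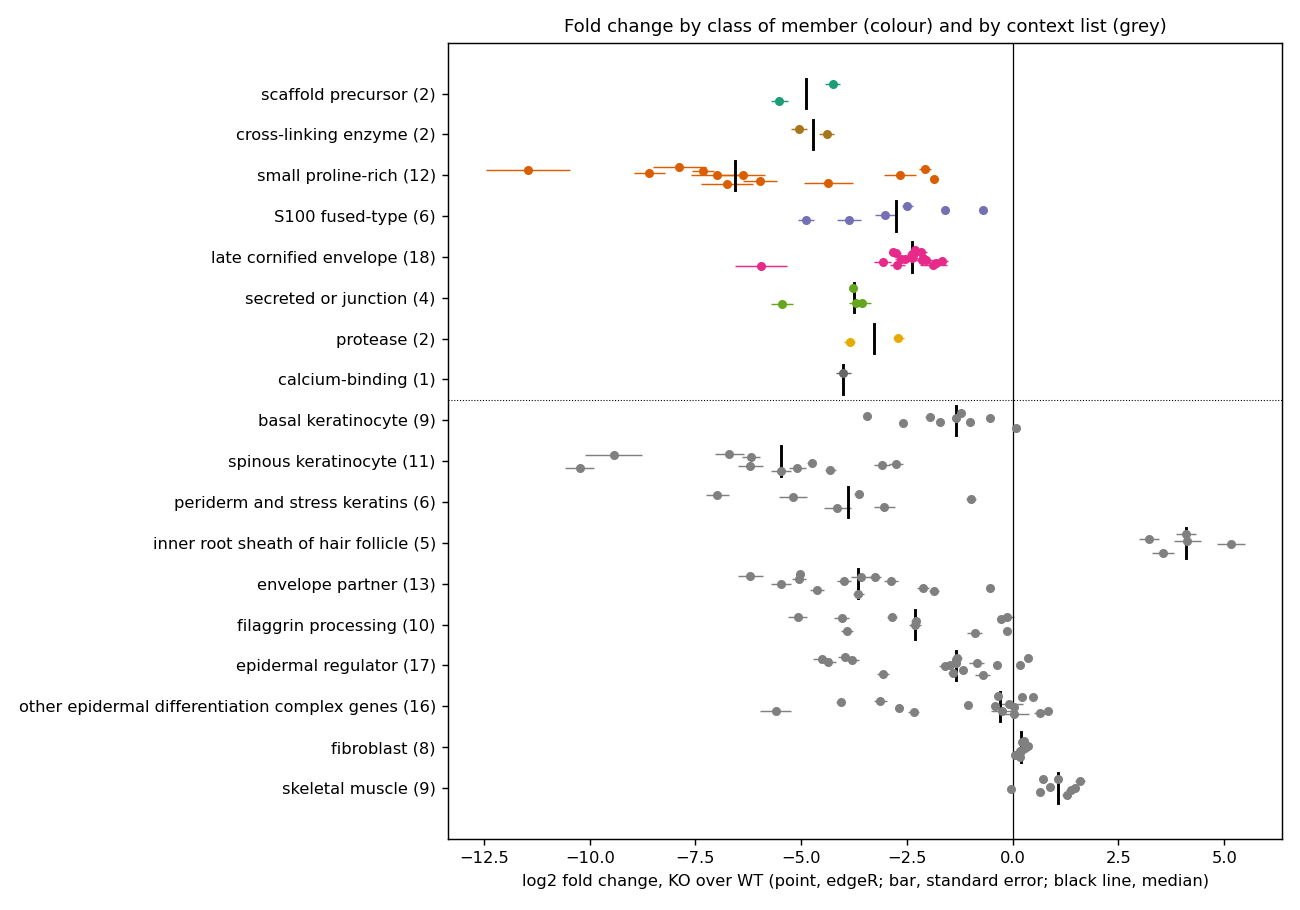
Log2 fold changes of KO over WT (points, with SE as bars) for the tested members by class, in colour, and for the tested genes of each context list, in grey, with the number of genes in brackets and a black line at each median. The small proline-rich genes spread the widest, from *Sprr3* to *Sprr2d*, with 8 of the 12 near 0 counts in KO, the late cornified envelope genes have a median of -2.38, spinous markers have a median of -5.47, fibroblast genes lie near 0, and muscle and inner root sheath genes lie above it. The leftmost point, *Sprr3*, is a fitted value that rests on 0 counts in KO.

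By class, over the members that passed the filter, the median log2 fold change was -4.89 for the scaffold precursors, -4.73 for the cross-linking enzymes, -3.74 for the secreted and junction proteins, -3.28 for the proteases and -2.75 for the S100 fused-type genes. The untested members were *Sprr2a2*, *Sprr2b*, *Sprr2c-ps*, *Sprr2f*, *Sprr4*, *Lce3a*, *Lce3b*, *Lce3d* and *Tchhl1*. They had at most 41 counts in a WT library and 6 in a KO library, and *Sprr2c-ps* had no count anywhere. In all, 5 of the 56 members had no count in any KO library but at least 1 in WT, and *Sprr3* was the tested member of these. Values of the 9 tested members with under 20 counts over the KO libraries, 8 of them *Sprr* genes, are the least precise of the set.

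The make-up of the remaining RNA differed as well as its amount. Within the counts of the 56 genes, *Lor* held 14.3 ± 0.184% in WT and 8.01 ± 0.814% in KO. *Hrnr* held 14.02 ± 0.538% in WT and 5.09 ± 0.374% in KO, and *Dmkn* 11.9 ± 0.563% and 2.89 ± 0.627%. *Flg* went the other way, from 6.49 ± 0.232% to 23.1 ± 1.95%, and it ranked 6 among the members in every WT library and 1 in every KO library. The late cornified envelope genes as a class held 13.8% in WT and 29.2% in KO. *Ivl* ranked 8 or 9 in the WT libraries and 25 in all KO libraries, and its share was 2.82 ± 0.129% in WT and 0.663 ± 0.0809% in KO. The small proline-rich class held 1.38% in WT and 0.329% in KO. These shares are set by the same fold changes as above and are another view of them.

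**Figure D3:**
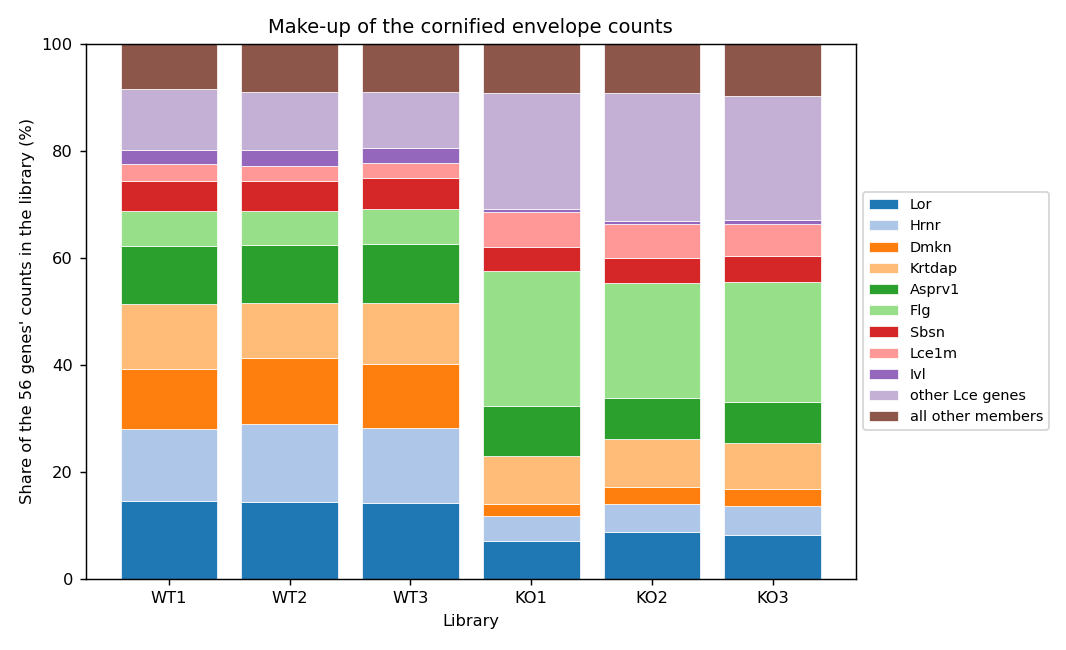
Share of the counts of the 56 genes taken by each gene or group of genes, in percent of those counts, in each of the 6 libraries. The 3 libraries of a genotype look alike, *Flg*, *Lce1m* and the other *Lce* genes take more in KO, and *Lor*, *Hrnr*, *Dmkn* and *Ivl* take less.

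Against markers of the epidermal layers the members did not keep 1 ratio. Counts of the 56 genes per count of the basal keratinocyte list were 5.63 ± 0.617 in WT and 1.85 ± 0.297 in KO. Per count of the spinous list they were 0.661 ± 0.0295 in WT and 3.14 ± 0.583 in KO, so the members lay between both lists. *Flg* per *Krt5*, a keratin of basal cells, was 0.677, 0.759 and 0.683 in WT and 0.764, 0.960 and 1.04 in KO, ranges that nearly touched. Per count of *Krt14*, the partner of *Krt5* in the same cells, *Flg* was at 1.63 ± 0.172 in WT and at 3.25 ± 0.329 in KO, with no overlap between the groups. *Lor* per *Krt5* was 1.56 ± 0.156 in WT and 0.329 ± 0.0987 in KO, and *Sprr1b* per *Krt5* was 0.0854 ± 0.0150 and 0.0022 ± 0.00089. *Lor* per *Krt10*, the keratin of spinous cells, was 0.273 ± 0.0215 in WT and 1.07 ± 0.167 in KO. *Lor* and *Lce1m* also parted, with 0.203 ± 0.0106 *Lce1m* counts per *Lor* count in WT and 0.787 ± 0.102 in KO. Ratios within a library do not depend on depth or scaling.

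**Figure D4:**
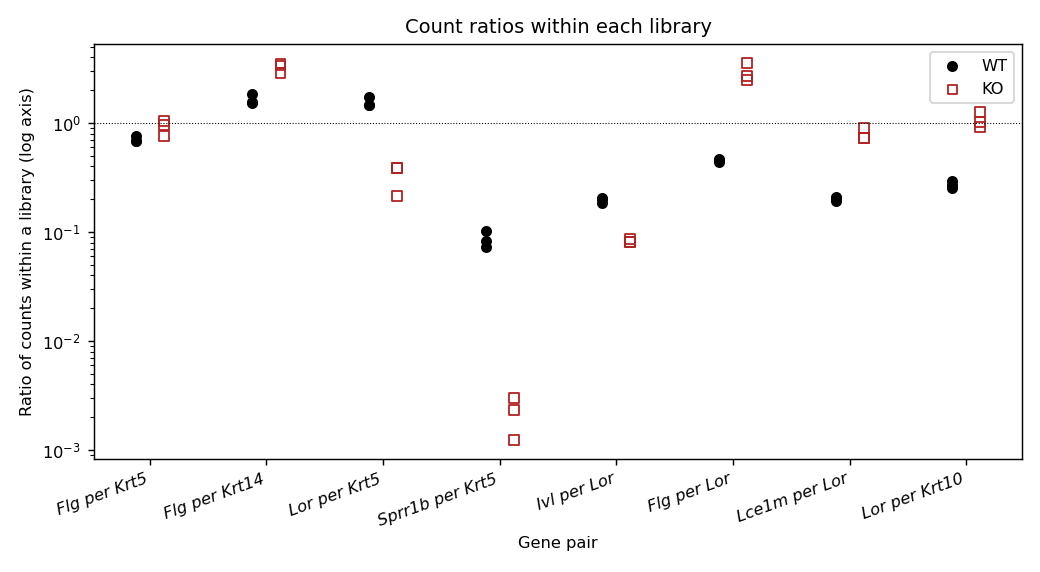
Ratio of the counts of 2 genes within each library, on a log axis, with WT as filled circles, KO as open squares and a dotted line at 1. Of the ratios plotted *Flg* per *Krt5* differs least between the genotypes, *Flg* per *Krt14* is higher in KO, *Lor* and *Sprr1b* per *Krt5* and *Ivl* per *Lor* are lower in KO, and *Flg* and *Lce1m* per *Lor* and *Lor* per *Krt10* are higher in KO.

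The keratinocyte lists themselves were tested with edgeR, with p-values adjusted over all genes tested. These and the other context lists were chosen with earlier results of these data known, so their p-values are no independent support. Of the 9 basal markers 7 fell and none rose, in edgeR, in DESeq2 or at an unadjusted p under 0.05, with a median log2 fold change of -1.35. *Krt5* was at 935, 1108 and 959.9 CPM in WT and at 301, 244 and 226 CPM in KO, and fell by 1.96 on the log2 scale (SE 0.11, edgeR adjusted p = 8.78e-07). *Krt14*, its partner, fell by 2.59 (SE 0.074, edgeR adjusted p = 3e-08). *Itga6*, an integrin that vessels and nerves also carry, was at 115 ± 3.30 CPM in WT and at 122 ± 3.45 CPM in KO and did not pass the test (edgeR adjusted p = 0.143). All 11 spinous markers fell, with a median of -5.47. *Krt1* went from 9575 ± 1963 in WT to 215 ± 56.1 CPM in KO (edgeR adjusted p = 1.98e-07), and *Krt10* from 5837 ± 1582 to 79.3 ± 23.9 CPM (edgeR adjusted p = 3.14e-07). *Krt78*, the spinous marker with the smallest change, fell by 2.75 (SE 0.16, edgeR adjusted p = 1.3e-06).

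All 6 periderm and stress keratins fell, with a median of -3.90. *Krt13*, a keratin of mucosa and periderm, fell by 6.99 (SE 0.27, edgeR adjusted p = 1.19e-07), and *Krt17*, also a keratin of hair follicles, by 0.99 (SE 0.12, edgeR adjusted p = 0.000178). The inner root sheath keratins were the opposite: 5 of 7 were tested and all 5 rose, with a median of 4.10. Their summed level over the 7 genes was 0.448 to 0.578 CPM in WT, against 6.03 to 8.42 CPM in KO, so they were low in both genotypes. *Krt28* was at 0.243, 0.145 and 0.256 CPM in WT and at 3.38, 2.31 and 2.04 CPM in KO (edgeR adjusted p = 4.74e-06), and *Krt73* at 0.0739, 0.133 and 0.0853 CPM and 1.95, 1.56 and 1.47 CPM (edgeR adjusted p = 8.78e-07). *Krt25* rose the most of them on the log2 scale, by 5.15 (SE 0.33, edgeR adjusted p = 1.93e-06), from 3, 2 and 5 counts in WT1 to WT3. Because of the filter, the p-values of *Krt73* and *Krt25* are given as a description. *Tchh*, the member that belongs to the same hair layer, did not rise with them.

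Of the 8 fibroblast markers none was called in either direction by edgeR or DESeq2, while at an unadjusted p under 0.05 in edgeR 6 were higher and none lower, with a median of 0.21 and a summed level of 40593 to 43634 CPM in WT, against 48648 to 50620 CPM in KO. *Col1a1* differed by 0.16 (SE 0.083, edgeR adjusted p = 0.15) and *Col1a2* by 0.22 (SE 0.073, edgeR adjusted p = 0.0338), the second of which missed the fold threshold only. Of the 9 skeletal muscle markers 8 rose, with a median of 1.06. *Myh8* rose by 1.59 (SE 0.11, edgeR adjusted p = 3.08e-06) and *Acta1* by 1.47 (SE 0.11, edgeR adjusted p = 4.6e-06).

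Proteins that build the envelope without being members were examined as a list of 14 genes, of which *Pi3* was not found among the symbols. Of the 13 tested, 12 fell, with a median of -3.65, and this list shares *Krt1* and *Krt10* with the spinous list. Envoplakin and periplakin, the scaffold plakins, fell by 3.25 (*Evpl*, SE 0.14, edgeR adjusted p = 1.91e-07) and by 2.88 (*Ppl*, SE 0.17, edgeR adjusted p = 1.22e-06). Desmoplakin, *Dsp*, went from 485 ± 116 in WT to 14.7 ± 0.463 CPM in KO (edgeR adjusted p = 5.71e-08). *Tgm5*, a further transglutaminase, fell by 1.86 (SE 0.13, edgeR adjusted p = 3.07e-06). *Anxa1*, a calcium-dependent membrane-binding protein of many cell types, was at 149 ± 10.5 CPM in WT and at 102.1 ± 4.41 CPM in KO, and its log2 fold change of -0.55 (SE 0.056, edgeR adjusted p = 4.7e-05) missed the fold threshold. The genes other than *Krt1*, *Krt10* and *Anxa1* were named after their values were seen.

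Among 10 genes of filaggrin processing, 7 fell, with a median of -2.30. *Blmh*, the bleomycin hydrolase of the last step of filaggrin breakdown, was at 314, 438 and 343 CPM in WT and at 72.9, 77.6 and 72.2 CPM in KO and fell by 2.30 (SE 0.11, edgeR adjusted p = 3.17e-07). *Klk7*, a kallikrein that cuts corneodesmosin, fell by 3.92 (SE 0.14, edgeR adjusted p = 9.5e-08). *Padi3*, a deiminase of hair and skin, did not pass, at 0.848 ± 0.0680 CPM in WT and at 0.777 ± 0.115 CPM in KO (edgeR adjusted p = 0.534). *Furin* and *Capn1*, which most cells express, were the other two that did not pass, with log2 fold changes of -0.14 and -0.27. The log2 fold change of *Flg* itself was nearer 0 than those of *Blmh*, *Asprv1* and *Casp14*.

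Of 17 tested regulators of epidermal differentiation 14 fell and none rose in edgeR or DESeq2, while 2 were higher at an unadjusted p under 0.05 in edgeR, with a median of -1.33. *Klf4*, a factor needed for the skin barrier and present in many other cells, was at 139.6, 183 and 150.5 CPM in WT and at 66.0, 71.5 and 73.3 CPM in KO, and fell by 1.17 (SE 0.091, edgeR adjusted p = 7.19e-06). *Zfp750*, *Grhl3* and *Ovol1*, factors largely restricted to epithelia and named after their values were seen, fell by 4.51 (SE 0.21, edgeR adjusted p = 2.97e-07), 4.38 (SE 0.20, edgeR adjusted p = 2.63e-07) and 3.81 (SE 0.18, edgeR adjusted p = 2.76e-07). *Maf* was higher in KO by 0.36 (SE 0.044, edgeR adjusted p = 0.000131), under the fold threshold. *Nfe2l2*, at a log2 fold change of 0.17, and *Fosl2*, at -0.38, were under it as well, and *Fosl1* was not tested.

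The members lay mostly in 1 stretch of chromosome 3. From *Lor* to *Tchhl1*, chr3:92080271-93471980 in mm10 and 1392 kb long, there were 47 of the 56 members, 38 of them tested, with a median log2 fold change of -2.70. The 9 members on other chromosomes were all tested and had a median of -3.85, from -5.47 for *Dmkn* to -2.70 for *Casp14*. They too belong to the set proposed from this contrast, so nothing is read from their direction. Between the members, 12 other genes of the stretch were tested: 8 fell and none rose in edgeR or DESeq2, while 1, *Prr9*, was higher at an unadjusted p under 0.05 in edgeR, and the median was -1.70. Of these *2310046K23Rik*, named after its values were seen, went from 8.08 in WT to 0.0350 CPM in KO, with a log2 fold change of -7.80 (SE 0.31). It lies between *Sprr4* and *Ivl*, next to the small proline-rich genes. *Prr9*, near the *Lor* end, was at 0.0946 CPM in WT and at 0.174 CPM in KO, a low level in both.

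Outside the stretch, within 2 Mb on either side, 94 genes were tested, of which 12 fell (12.8%) and 8 rose (8.51%), with a median log2 fold change of 0.035. *Synpo2*, in whose intron *SYISL* lies, is 29.6 Mb away, and among the 350 genes tested in between, 26 fell (7.43%) and 33 rose (9.43%), with a median of 0.0042. Over all genes tested the shares were 8.39% lower and 8.31% higher. The S100 genes and others that are usually counted with the complex, some of them beyond this stretch, were examined as a list of 19, of which 16 were tested. Of these 6 fell, namely *S100a14*, *S100a16*, *Pglyrp3*, *Pglyrp4*, *Kprp* and *Crct1*, and 2 rose, *S100a1* and *S100a4*. *S100a11* was at 485 ± 25.4 CPM in WT and at 382 ± 21.5 CPM in KO and missed the fold threshold (edgeR adjusted p = 0.00118). *S100a10*, the annexin A2 partner, was at 231 ± 18.2 CPM in WT and at 236 ± 7.77 CPM in KO (edgeR adjusted p = 0.682). *S100a1*, a protein of striated muscle, rose by 0.83 (SE 0.055, edgeR adjusted p = 2.48e-06).

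**Figure D5:**
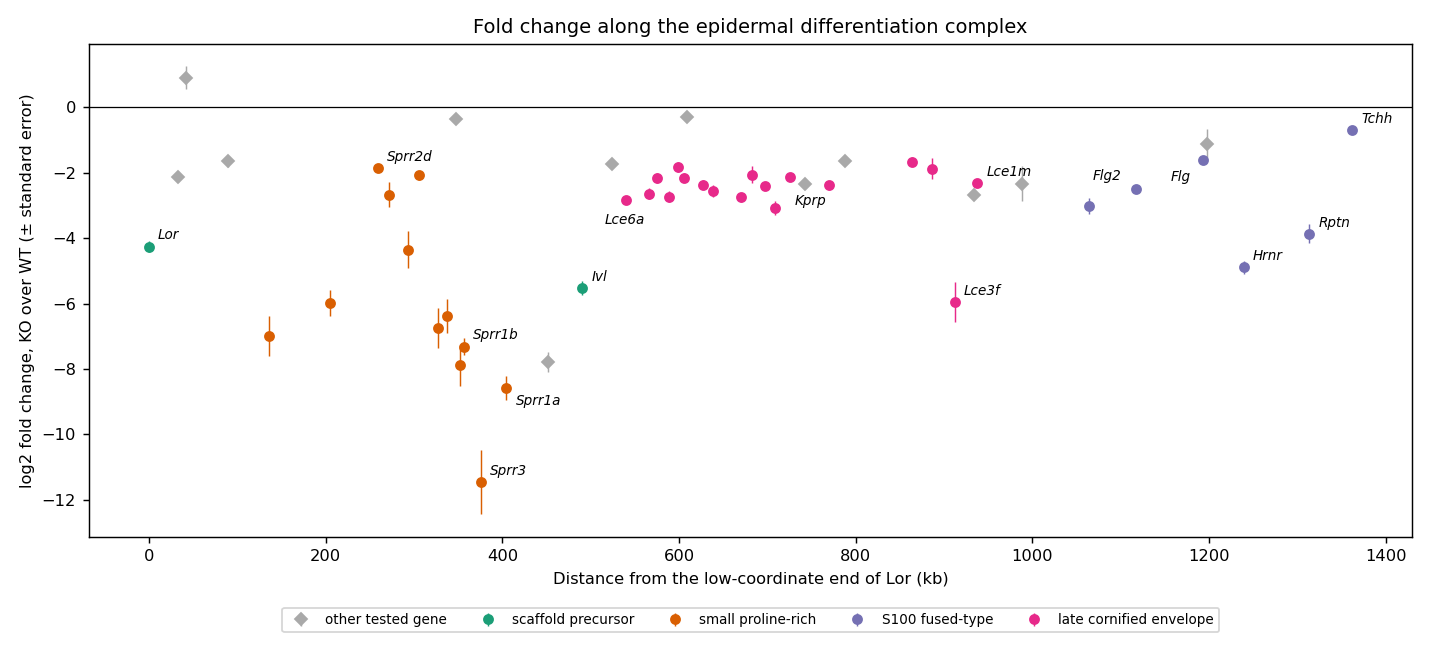
Log2 fold change of KO over WT (with SE) of each tested gene against its distance in kb from the low-coordinate end of *Lor*, for members by class in colour and for the other tested genes of the stretch as grey diamonds. The lowest points are small proline-rich genes and *2310046K23Rik*, all between *Lor* and *Ivl*, with *Sprr3* a fitted value on 0 KO counts, the *Lce* genes other than *Lce3f* form a band around -2.38, and among the S100 fused-type genes *Hrnr* and *Rptn* lie lower than *Flg*, *Flg2* and *Tchh*.

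The WT libraries differed from each other more in these genes than in most. WT2 was the highest WT library in 43 of the 47 tested members, and in 8481 of the 22071 genes tested. WT2 was highest with WT1 lowest in 28 of the members (59.6%), an order that 25.5% of all genes tested followed. The ratio of WT2 to WT1 had a median of 1.39 over the members and reached 2.90 for *Sprr3*. The median coefficient of variation over the WT libraries was 19.7% for the members and 6.44% for all genes tested. Among the KO libraries KO1 was the lowest in 33 members (70.2%), which held for 38.4% of all genes tested. The spinous list followed the same order of the WT libraries in 9 of 11 genes and the basal list in 8 of 9. Members do not vary independently of each other, so these counts describe the libraries. Without WT2, all 47 members tested were still called lower, with a median log2 fold change of -2.99.

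Promoter letters were compared for the 51 members found in the RefSeq table, over the 250 bases before the start. *Calml3*, *Lce1f*, *Sprr2c-ps*, *Sprr2g* and *Sprr2j-ps* were the members not matched. The AP-1 letters, searched on both strands, were in 12 of the 51 (23.5%), where 4.46% of all 32851 promoters of the table held them. They were in 8 of 14 small proline-rich genes, in both scaffold precursors and in *Dmkn* and *Krtdap*, but in none of 20 late cornified envelope genes and none of 7 S100 fused-type genes. TATAAA was in 43.1% of the members and in 12.4% of all promoters, and on the strand of the gene within 15 to 40 bases of the start in 35.3% and 2.11%. Within that window it was in 9 of 14 small proline-rich genes but in 2 of 20 late cornified envelope genes. By the RefSeq starts used here, the TATA boxes of *Sprr1a* and *Flg* fell outside the window. The pair, AP-1 letters with a TATA box in that window, was in 19.6% of the members and 0.183% of all promoters. CACCC, a core of KLF binding sites, was as common in the members (51.0%) as in all promoters (52.0%).

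As in the stretches printed above, members with and without the AP-1 letters overlapped in their differences. The 10 tested members with AP-1 letters ranged in log2 fold change from -8.59 for *Sprr1a* to -1.86 for *Sprr2d*, with a median of -4.86. The 33 tested members without them had a median of -2.73. They ranged from -11.45 for *Sprr3*, a fitted value on 0 KO counts, to -0.70 for *Tchh*, and held *Sprr1b* at -7.32. Whether the letters bear on the differences was not tested. *Sprr2d* and *Sprr2h*, at -1.86 and -2.08, and *Sprr2k*, at -7.89 on 2 KO counts, all carried both the AP-1 letters and a TATA box. *Sprr2k* held 2 AP-1 sites, and *Sprr2d* and *Sprr2h* held 1 each. *Sprr1b* and *Sprr3* had no AP-1 letters in this window. Near-copies such as the *Sprr2* genes share their promoter letters by descent, so members are not independent here. A match of letters does not show binding, and a window without a match shows only that these letters are not in it.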

How the data were processed

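RNA-seq libraries of E18.5 fetal leg muscle from 3 WT and 3 *SYISL* KO mice were analysed. The authors deposited unnormalized whole-number counts for each gene, made by trimming with Trim Galore 0.6.6, mapping to mm10 with HISAT2 2.2.1 and counting with featureCounts 2.0.1, per the submitters' processing notes. The annotation, the strandedness setting and the unit of counting (reads or pairs) are not given in the sources used here, and the study's own comparison used DESeq2.

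GENCODE M21 held 55227 of the 56262 IDs and gave symbols, positions and exon lengths, and 1035 IDs were absent from it. Counts were analysed in R 4.3.3 with edgeR 4.0.16: filterByExpr, TMM scaling and the quasi-likelihood F-test on genotype alone over 22071 genes, with Benjamini-Hochberg adjustment. A call needed a fold change over 1.5 at an adjusted p under 0.05. Depth was 82054811 to 102233181 counts per library.

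The members, the context lists and the tests were chosen with earlier results of these data known. Named genes were the members that the rule gives singly, the 6 *Sprr* and 6 *Lce* genes with the highest mean CPM, the 3 tested members with the highest log2 fold change, and of each context list the 2 genes with the highest mean CPM and, for epidermal lists, the tested gene with the highest log2 fold change. Genes named outside this rule are marked as such or stand in a count of a list.

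After group means were removed, WT and KO libraries with equal replicate numbers had correlations of -0.20, -0.13 and 0.05, and the libraries were not paired. Alternatives were RLE, upper-quartile and no scaling factors, DESeq2 1.42.0, limma-voom (limma 3.58.1), other filters and fold thresholds, a replicate block, and leaving out each library. Promoters were read from a RefSeq table of build GRCm38.p6, which holds 250 bases before and 50 bases after each start. Counting intervals are exact at the 95% level and cover counting error only.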

Additional observations from a re-analysis of the deposited data

How the results depend on the processing

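The set was proposed from this contrast, so the counts of called members below describe the fits and are no support. With other scaling factors, limma-voom or the replicate block 47 members were called lower, as were 7.58% to 9.46% of all genes, and with a fold change over 2 46 were, without *Tchh*, as were 5.75% of all genes. No alternative called a member higher. Requiring at least 10 counts in every library left 36 members, all called where 7.51% of all genes were, with a median log2 fold change of -2.72 in place of -3.02, because the genes nearest to 0 in KO drop out. Without a filter 55 members could be fitted and 50 were called lower, and DESeq2 called 48, where 5.57% and 4.72% of all genes were. Leaving out 1 library at a time gave 47 to 49 called members, against 7.51% to 8.54% of all genes, and medians of -3.20 to -2.93. Every member fitted was called, except without KO2 and without KO3, where 48 of 49 were. With the replicate block 47 members were called, with a median of -3.02, and the pairing changed no call of the members or lists by over 1.5 times. Over all genes, 5098 were lower and 4838 higher with no fold threshold, and 774 higher with a fold change over 2, where the skeletal muscle list kept 5 calls.

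Of the genes outside the set, *S100a10* changed sign, at 0.034 with TMM, -0.036 on library size alone and -0.0058 to 0.099 when 1 library was left out, and *Anxa1* reached the fold threshold on library size alone, at -0.62. The cause was not tested. Scaling moved the median of all genes by at most 0.069. Limits are the small number of libraries, the KO counts near 0 of the *Sprr* genes, and reads shared among near copies.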
